A study of Mus musculus with 13 samples.

Results

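Neurotrophins and their receptors were examined as 7 genes among the 40787 genes of the deposited table. The genes were chosen by name and were the ligand genes Bdnf, Ntf3, and Ntf5 and the receptor genes Ngfr, Ntrk2, Ntrk3, and Sort1. RNA from mouse sciatic nerves, stripped of the epineurium, was sequenced in 13 libraries from 4 groups. The mice, on a C57BL/6 background, carried floxed alleles of Rptor, which encodes the mTORC1 subunit Raptor. RaptorKO mice also carried a tamoxifen-inducible Cre transgene that is active in Schwann cells (SCs) and other glia, whereas controls were Cre-negative. All mice, controls included, received tamoxifen at 2 months of age, and sciatic nerve surgery followed 2 months after the last injection. One nerve was crushed and the other left as the contralateral nerve, and both were collected at 5 days post crush (dpc), the injured nerve distal to the crush. The groups were control contralateral (n = 3), RaptorKO contralateral (n = 4), control injured (n = 3), and RaptorKO injured (n = 3).

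Neurotrophins are secreted growth factors made as longer proneurotrophins and cleaved by proteases. The mature proteins bind Trk receptor tyrosine kinases, which act through adaptors on the MAP kinase, PI3 kinase, and phospholipase C pathways. All neurotrophins also bind the p75 receptor, and proneurotrophins bind p75 together with sortilin. In peripheral nerves, p75 is a classical marker of immature, nonmyelinating, and dedifferentiated SCs, and the denervated nerve is a known source of neurotrophins for regrowing axons.

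The genes lie on 6 chromosomes of GRCm38, and the annotation lists each as protein coding. Ngfr (ENSMUSG00000000120), which encodes p75, spans chr11:95568818-95587735 on the minus strand. Ntrk2 (ENSMUSG00000055254), which encodes the BDNF and NT-4/5 receptor TrkB, spans chr13:58806569-59133970 on the plus strand. Ntrk3 (ENSMUSG00000059146), which encodes the NT-3 receptor TrkC, spans chr7:78175959-78738012 on the minus strand. Sort1 (ENSMUSG00000068747), which encodes sortilin, spans chr3:108284082-108361511 on the plus strand. Among the ligand genes, Bdnf (ENSMUSG00000048482) spans chr2:109674700-109727007 on the plus strand, Ntf3 (ENSMUSG00000049107) spans chr6:126101412-126166910 on the minus strand, and Ntf5 (ENSMUSG00000074121), which encodes NT-4/5, spans chr7:45413695-45417179 on the plus strand. Antisense genes overlap exons of Bdnf and Sort1, and they held at most 0 and 3 counts in any library.

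Upstream sequences are shown for Ngfr and Ntrk2, the receptor genes with an entry in the sequence table, which had the largest and the smallest change with injury. They are the 250 bases before the annotated start in RefSeq (GRCm38.p6), read 5′ to 3′ on the strand of the gene, chr11:95587699-95587948 for Ngfr and chr13:58806319-58806568 for Ntrk2. Capitals mark matches to GGGCGG, the GC box, on either strand. The gene span of Ngfr given above begins at 95587735 on the minus strand, which is inside this window. The last bases of the Ngfr window, with its last GC box, therefore lie within that span and not before it.
Ngfr: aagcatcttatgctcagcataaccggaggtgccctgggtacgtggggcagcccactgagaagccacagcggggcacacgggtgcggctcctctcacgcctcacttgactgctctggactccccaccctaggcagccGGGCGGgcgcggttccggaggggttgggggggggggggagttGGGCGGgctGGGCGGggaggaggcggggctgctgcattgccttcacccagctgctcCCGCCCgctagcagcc
Ntrk2: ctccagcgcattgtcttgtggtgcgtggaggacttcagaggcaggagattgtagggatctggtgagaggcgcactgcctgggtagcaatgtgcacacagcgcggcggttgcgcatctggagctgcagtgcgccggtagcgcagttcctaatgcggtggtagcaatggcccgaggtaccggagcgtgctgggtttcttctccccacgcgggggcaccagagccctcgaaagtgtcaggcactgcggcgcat
The Ngfr window contained 70.4% G and C and 4 GC boxes, a motif present in 32.7% of 32841 windows of the same length. The Ntrk2 window contained 62.8% G and C. It held none of the 5 motifs searched on both strands, which were the GC box, AP-1 (TGANTCA, in 6.75% of windows), CRE (TGACGTCA, 1.55%), the E-box CACGTG (6.02%), and CCAAT (33.9%). Apart from the GC boxes, none of these motifs was in the Ngfr window.

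The libraries held 8200458 to 13581775 estimated counts. Gene levels are given as CPM (counts per 1000000) scaled with TMM factors, which correct for library composition, and differences were tested with the quasi-likelihood test of edgeR, with p-values adjusted by Benjamini-Hochberg across the genes tested. A gene was called when its adjusted p was below 0.05 and its fold change above 1.2. Rptor, the targeted gene, was at 43.7 to 52.5 CPM in control and 22.1 to 28.0 CPM in RaptorKO contralateral nerves (log2 fold change -0.998 ± 0.118 SE, adjusted p = 5e-04). It was at 35.1 to 48.6 CPM in control and 23.2 to 28.6 CPM in RaptorKO injured nerves (-0.69 ± 0.15, adjusted p = 0.0167). The Rptor call in injured nerves was lost without control injured 1 or 2 or RaptorKO injured 1, with adjusted p values of 0.0511, 0.0882, and 0.0675. The SC marker Sox10 was present in every library, and the summed level of 6 SC markers was 31268 to 43263 CPM in contralateral and 2199 to 3802 CPM in injured nerves. Both libraries of control 3 stood apart by sex-linked transcripts, with 14462 and 15017 Xist counts against 4 to 17 elsewhere. Receptor comparisons with controls are therefore also given without them, in places within a range over alternatives. For genes of the pathway lists, a call that ended without them is named.

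The 4 receptor genes passed the filter of 50 counts in at least 2 libraries in all comparisons, whereas the 3 ligand genes passed it in none. Injury changed all 4 receptors in control nerves and 3 of them in RaptorKO nerves. Ngfr rose by more than an order of magnitude in both genotypes, Ntrk3 and Sort1 fell in both, and Ntrk2 fell in control nerves. Injury moved most genes of the nerve, with 65.3% of 12430 tested genes called in control nerves (32.4% higher, 32.9% lower) and 58.9% of 12515 in RaptorKO nerves (30.5% higher, 28.5% lower), so the count of receptors called is set against a high background. Between genotypes, Ngfr was called in contralateral nerves and no receptor was called in injured nerves, where 8.54% of 12040 genes were called (4.09% higher, 4.44% lower).

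**Figure D1:**
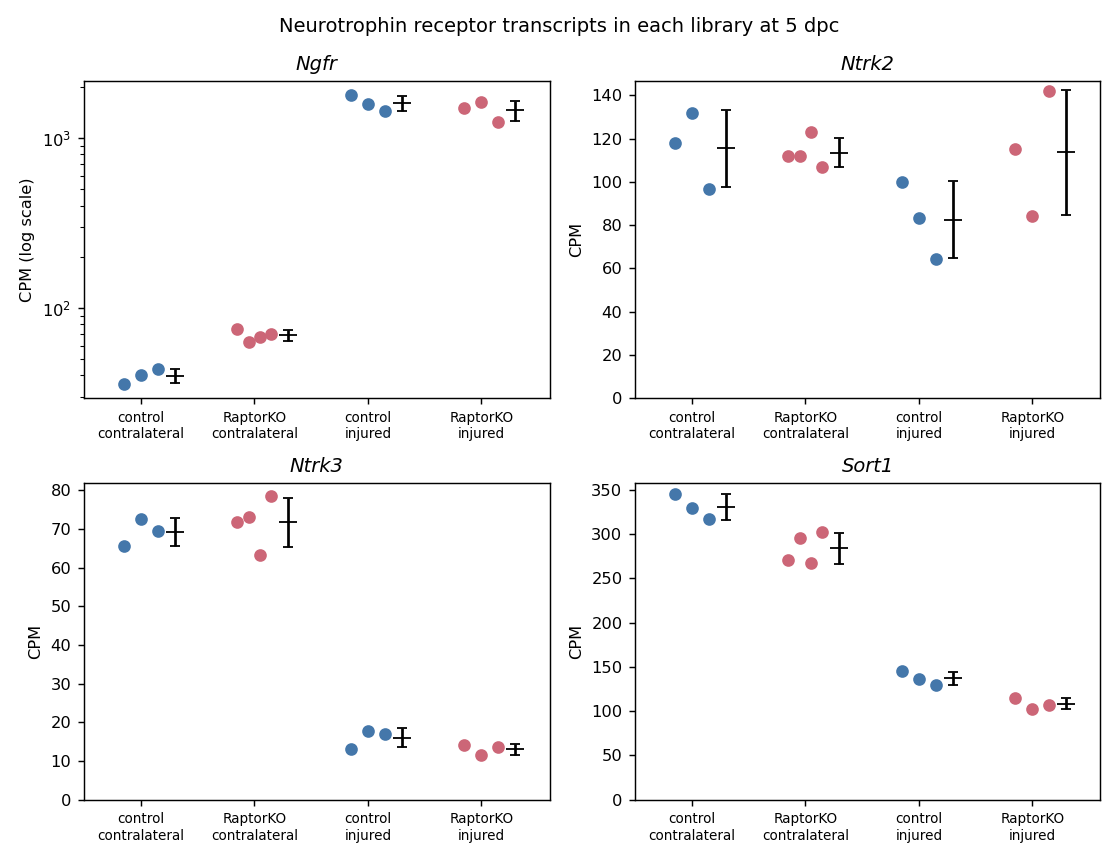
Level of each receptor transcript in CPM in every library (points) by group, with the group mean and SD (bars); the Ngfr axis is logarithmic. Injured nerves lie above contralateral nerves for Ngfr and below them for Ntrk3 and Sort1, and the Ntrk2 groups overlap.

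Ngfr, the p75 gene, changed most with injury among the receptors. In control contralateral nerves, its level was 35.8, 40.2, and 43.6 CPM. In control injured nerves, it was 1780, 1581, and 1447 CPM. The difference corresponded to a 39.5-fold rise (log2 fold change 5.30 ± 0.135 SE, adjusted p = 6.26e-11). Every injured library exceeded every contralateral library, and 70.9% of tested genes had groups that did not overlap in this comparison and 60.6% in RaptorKO nerves. In RaptorKO nerves, Ngfr was at 75.2, 63.1, 67.6, and 70.2 CPM on the contralateral side and at 1494, 1624, and 1245 CPM on the injured side, a 21-fold rise (4.39 ± 0.122, adjusted p = 3.29e-09). Without both libraries of control 3, the rise in control nerves was 5.44 on the log2 scale (adjusted p = 1.02e-09).

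The smaller fold change in RaptorKO nerves went with a higher level in the contralateral nerves. In contralateral nerves, Ngfr averaged 39.9 ± 3.9 CPM (SD, n = 3) in controls and 69.0 ± 5.06 CPM (SD, n = 4) in RaptorKO nerves. The groups did not overlap, which 9.98% of genes shared with RaptorKO as the higher group, and the difference was 1.75-fold (log2 fold change 0.81 ± 0.0999 SE, adjusted p = 0.000681). It was the only receptor called in this comparison, in which 10.2% of 11878 tested genes were called (4.49% higher and 5.68% lower in RaptorKO). Without control contralateral 3, the log2 fold change was 0.88 (adjusted p = 0.00218). In injured nerves, the means were 1603 ± 167 CPM in controls and 1455 ± 193 CPM in RaptorKO (SD, n = 3 each), and the groups overlapped. The log2 difference of -0.12 did not pass the test (adjusted p = 0.676), and its 95% interval ran from -0.42 to 0.17. When a library was left out, control injured 3 included, the difference ranged from -0.216 to -0.019. It was called under no alternative (adjusted p 0.43 to 0.957). The test of the difference between both injury responses, the genotype by injury interaction, was called for Ngfr at -0.93 ± 0.164 (adjusted p = 0.00857), where 2.47% of 12851 genes were called (1.07% higher, 1.41% lower). Without both libraries of control 3, it was -1.07 (adjusted p = 0.0192).

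The nerves contain several cell types, and in bulk RNA fewer cells of a type cannot be told apart from less RNA per cell. In the contralateral nerves in which Ngfr differed, the summed SC markers were at 38610 to 43263 CPM in control and 31268 to 39507 CPM in RaptorKO libraries, and 4 of 6 were called lower. The summed level of 6 macrophage markers was 116 to 131 CPM in control and 189 to 242 CPM in RaptorKO libraries, and 2 were called higher. The summed level of 5 endoneurial fibroblast markers was 4712 to 5617 CPM in control and 7568 to 10382 CPM in RaptorKO libraries, and 3 were called higher. The summed level of 5 mast cell markers was 11.9 to 58.1 CPM in control and 79.6 to 137 CPM in RaptorKO libraries, and 2 were called higher. Of all genes, 4.49% were called higher and 5.68% lower in this comparison. The part of these cell types in the Ngfr difference was not tested. Relative to Sox10, an SC transcription factor gene, Ngfr was 0.0515 to 0.0682 in control and 0.109 to 0.147 in RaptorKO contralateral libraries. This ratio was added after the values were seen. Sox10 itself was at 617 to 697 CPM in control and 480 to 587 CPM in RaptorKO contralateral libraries. With Ngfr higher and Sox10 lower in every RaptorKO library, the ratios had to stay apart, so nothing further is read from them. After injury, the ratio was 3.23 to 4.21 in control and 3.91 to 4.53 in RaptorKO libraries, which overlapped.

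**Figure D2:**
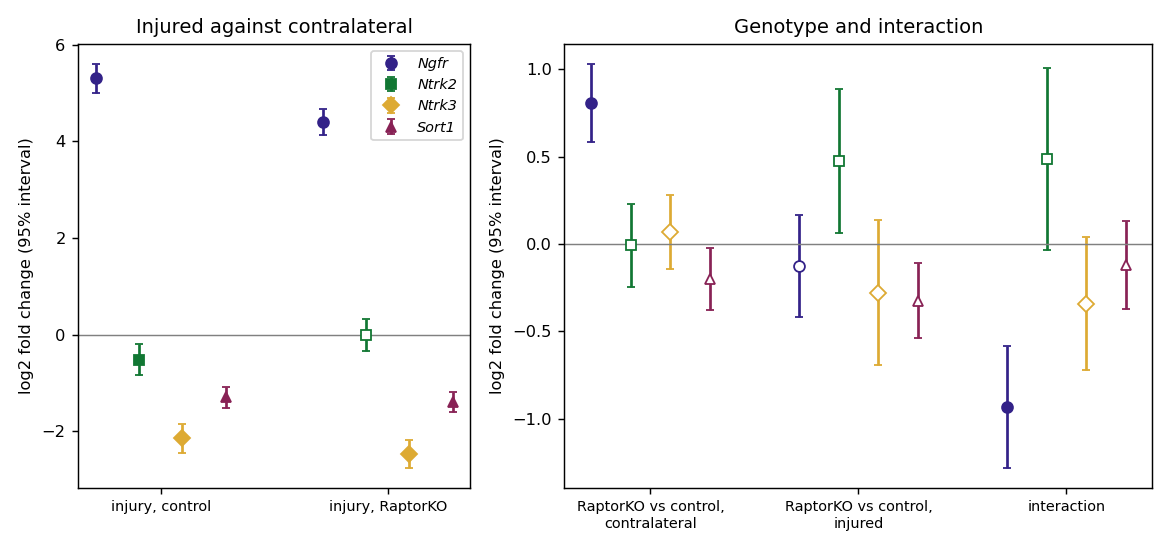
Log2 fold changes of the receptor transcripts with their 95% intervals for injury in each genotype (left) and for genotype in each nerve and the interaction (right); filled symbols were called. Ngfr stands at 5.30 and 4.39 for injury, at 0.81 for genotype in contralateral nerves, and at -0.93 for the interaction.

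Ntrk2, the TrkB gene, changed least with injury among the receptors. In control nerves, it was at 118, 132, and 96.6 CPM on the contralateral and 100, 83.4, and 64.3 CPM on the injured side. The injured group was 1.43-fold lower (log2 fold change -0.51 ± 0.151 SE, adjusted p = 0.01) although its highest library overlapped the contralateral range. Without both libraries of control 3, the value was -0.47 (adjusted p = 0.00632). In RaptorKO nerves, Ntrk2 was at 112, 112, 123, and 107 CPM on the contralateral and 115, 84.0, and 142 CPM on the injured side. The injured libraries spread to both sides of the contralateral ones, and the injury difference did not pass the test (adjusted p = 0.984), with a 95% interval from -0.34 to 0.33 on the log2 scale. The interaction did not pass the test either (0.49 ± 0.243, adjusted p = 0.398), so the responses of both genotypes were not shown to differ. Over all alternatives, those without control 3 libraries included, it ranged from 0.296 to 0.666 and was never called (adjusted p 0.151 to 0.64). Between genotypes, the log2 difference was 0.48 ± 0.189 in injured nerves (adjusted p = 0.164) and -0.01 ± 0.106 in contralateral nerves (adjusted p = 0.978). Without the control 3 library, these differences were 0.32 (adjusted p = 0.438) and -0.12 (adjusted p = 0.546). The injured result depended on RaptorKO injured 2, without which Ntrk2 was called higher (0.65, adjusted p = 0.0226), and on the count filter, without which it was also called (0.48, adjusted p = 0.00911). The Ntrk2 levels relative to Sox10 were 0.161 to 0.237 in control and 0.202 to 0.516 in RaptorKO injured libraries. In contralateral libraries, they were 0.151 to 0.214 in control and 0.182 to 0.257 in RaptorKO.

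Ntrk3, the TrkC gene, fell after injury in both genotypes. In control nerves, it was at 65.5, 72.7, and 69.5 CPM on the contralateral and 13.2, 17.8, and 17.0 CPM on the injured side, which was 4.41-fold lower (log2 fold change -2.14 ± 0.136 SE, adjusted p = 5.31e-08). In RaptorKO nerves, it was at 71.8, 73.0, 63.4, and 78.6 CPM on the contralateral and 14.1, 11.5, and 13.6 CPM on the injured side, which was 5.5-fold lower (-2.46 ± 0.13, adjusted p = 1.05e-07). Contralateral and injured libraries did not overlap in either genotype. Genotype groups overlapped on both sides, and the genotype differences of 0.07 (95% interval -0.14 to 0.28) in contralateral and -0.28 (-0.69 to 0.14) in injured nerves did not pass the test (adjusted p = 0.721 and 0.457). Without control 3, the injury difference in control nerves was -2.18 (adjusted p = 1.08e-06), and the genotype differences were 0.07 in contralateral and -0.23 in injured nerves (adjusted p = 0.771 and 0.641). Relative to Sox10, Ntrk3 was 0.094 to 0.118 in control and 0.126 to 0.14 in RaptorKO contralateral libraries. These ratios did not overlap although the CPM did, and Sox10 was lower in RaptorKO, so nothing further is read from them. In injured libraries, the ratio was 0.0311 to 0.0425 in control and 0.0276 to 0.0496 in RaptorKO.

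Sort1, the sortilin gene, also fell after injury. In control nerves, it was at 346, 330, and 317 CPM on the contralateral and 145, 136, and 130 CPM on the injured side, a 2.46-fold lower level (log2 fold change -1.30 ± 0.0953 SE, adjusted p = 1.87e-07). In RaptorKO nerves, it was at 271, 296, 267, and 302 CPM on the contralateral and 115, 103, and 107 CPM on the injured side, a 2.63-fold lower level (-1.40 ± 0.0927, adjusted p = 4.87e-07). Control and RaptorKO libraries did not overlap on either side, the RaptorKO libraries being the lower ones, but such separation was frequent. It was seen in this direction in 13.7% of genes in contralateral and 14.6% in injured nerves. The genotype differences of -0.20 ± 0.0797 in contralateral nerves (adjusted p = 0.145) and -0.33 ± 0.0978 in injured nerves (adjusted p = 0.0667) did not pass the test. When all 13 libraries were fitted together, the injured difference was called (-0.34, adjusted p = 0.0196). Without control 3, the injury difference in control nerves was -1.29 (adjusted p = 1.75e-06), and the genotype differences were -0.23 in contralateral and -0.37 in injured nerves (adjusted p = 0.19 and 0.1). Relative to Sox10, Sort1 overlapped between genotypes, at 0.496 to 0.534 in control and 0.512 to 0.556 in RaptorKO contralateral libraries and at 0.278 to 0.343 in control and 0.247 to 0.39 in RaptorKO injured libraries.

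Injury also changed the cellular markers that move beside these receptors. The 6 macrophage markers were all called higher in both genotypes, with summed levels of 2294 to 2786 CPM in control and 1397 to 2954 CPM in RaptorKO injured libraries. Of the 6 SC markers, 4 were called lower in control nerves, and in RaptorKO nerves 3 were lower and 1 higher. Over all genes, injury called 32.4% higher and 32.9% lower in control nerves and 30.5% and 28.5% in RaptorKO nerves. Between genotypes in injured nerves, 4 of 5 endothelial, 4 of 5 pericyte and smooth muscle, and 4 of 5 mast cell markers were called higher in RaptorKO. Of all genes, 4.09% were called higher in this genotype comparison. The part of these cell types in the receptor levels was not tested.

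Per kilobase of the longest coding transcript, Sort1 was the most abundant receptor transcript in control contralateral nerves (48.4 ± 2.1 CPM per kb, SD, n = 3), followed by Ntrk2 (13.2 ± 2.04), Ngfr (11.6 ± 1.13), and Ntrk3 (3.51 ± 0.183). Ntrk2 and Ngfr were neighbours whose ranges overlapped, at 11 to 15.1 and 10.4 to 12.7 CPM per kb. In RaptorKO contralateral nerves, Sort1 stood at 41.6 ± 2.55, Ngfr at 20.0 ± 1.47, Ntrk2 at 13 ± 0.794, and Ntrk3 at 3.64 ± 0.318 CPM per kb (SD, n = 4), with no overlap between neighbours. After injury, Ngfr led at 465 ± 48.6 in control and 422 ± 55.9 CPM per kb in RaptorKO nerves, and Sort1 followed at 20.0 ± 1.11 and 15.8 ± 0.879. The RaptorKO injured ranges of Sort1 (15 to 16.8) and Ntrk2 (9.6 to 16.2) overlapped. Coding transcripts of Ntrk2 run from 2284 to 8744 bases and those of Ntrk3 from 423 to 19703 bases, and both genes encode full-length and truncated receptors that a gene total does not separate. With the median transcript length, Ntrk2 (37.9 CPM per kb) and Ntrk3 (25.4) stood above Ngfr in control contralateral nerves and Ntrk2 (27.1) above Sort1 (20.1) in control injured nerves. The order changed likewise in RaptorKO nerves, with Ntrk2 (37.3) and Ntrk3 (26.3) above Ngfr on the contralateral and Ntrk2 (37.3) above Sort1 (15.9) on the injured side. The lead of Sort1 in contralateral and of Ngfr in injured nerves held for the group means with either length and with all exons.

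The ligand genes were at the limit of detection. Bdnf had 0 counts in each of 3 control contralateral libraries and 7, 3, and 1 counts in control injured libraries. For the contralateral group, a floor of 3 counts corresponds to 0.09 CPM, which is below the upper end of a two-sided 95% interval. Control injured and contralateral libraries did not overlap. The pooled level of 0.34 CPM (95% Poisson interval 0.17 to 0.61) was 3.83-fold a floor of 3 counts for the contralateral group. This ratio is no lower bound, since the lower end of the interval, 0.17 CPM, would give a smaller one. Control injured 1 alone held 7 of the 11 counts. The exact permutation test gave p = 0.1 (two-sided, n = 3 and 3), the smallest value this design allows, and 0.4 after Benjamini-Hochberg adjustment over 12 ligand tests. In RaptorKO nerves, Bdnf had 0, 0, 2, and 0 counts on the contralateral and 1, 2, and 3 counts on the injured side, or 0.049 CPM (0.0059 to 0.18) and 0.17 CPM (0.063 to 0.37). The injury difference in RaptorKO did not pass the exact permutation test (p = 0.114, adjusted 0.4).

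Ntf3 and Ntf5 counts came mostly from contralateral RaptorKO libraries. Ntf3 had 1, 0, and 0 counts in control and 1, 0, 1, and 3 counts in RaptorKO contralateral libraries. It had 0 counts in all 6 injured libraries. The floor of 3 counts corresponds there to 0.094 CPM in control and 0.086 CPM in RaptorKO nerves. Ntf5 had 0, 0, and 1 counts in control and 2, 3, 6, and 0 counts in RaptorKO contralateral libraries, or 0.03 CPM (0.00076 to 0.17) and 0.27 CPM (0.13 to 0.48). After injury, Ntf5 had a single count, in RaptorKO injured 2. The genotype difference in contralateral nerves gave p = 0.2 for each gene in the exact permutation test (adjusted 0.4), where 0.0286 is the smallest value for 3 against 4 libraries. No ligand comparison passed the test, which could not give a p below 0.1 for 3 against 3 libraries. The intervals cover counting error only.

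**Figure D3:**
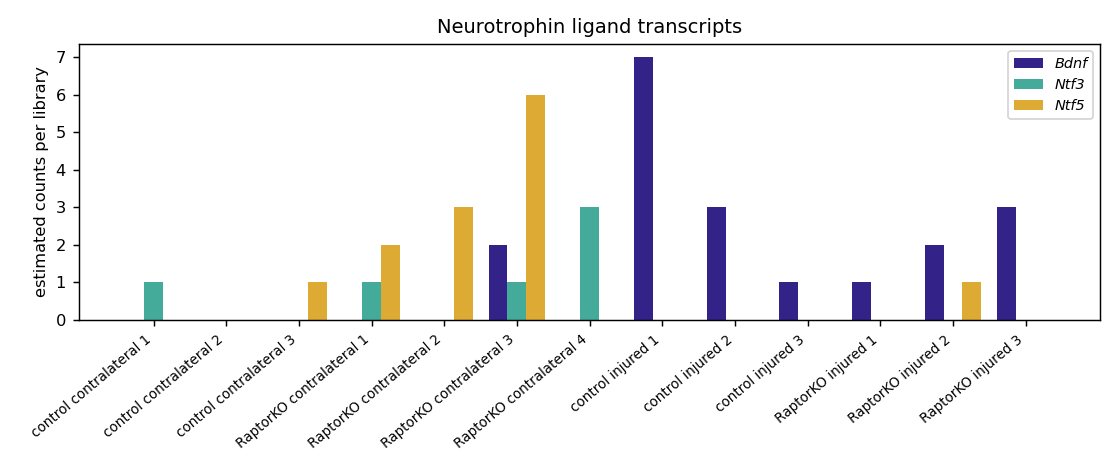
Estimated counts of the ligand transcripts in each of the 13 libraries. Bdnf counts appear in all 6 injured libraries at 1 to 7, and Ntf5 reaches 6 counts in RaptorKO contralateral 3.

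The genes of the pathway were followed in 4 further lists. Among 16 relatives of sortilin and partners of p75, 3 of 15 tested were called higher and 0 lower in RaptorKO contralateral nerves, against 4.49% and 5.68% of all genes, with a median log2 fold change of 0.02 against 0.01 over all genes. The called genes were the sortilin relatives Sorcs2 (0.89 ± 0.0848 SE, adjusted p = 0.00013) and Sorl1 (1.04 ± 0.23, adjusted p = 0.0182) and the Nogo receptor gene Rtn4r (1.41 ± 0.225, adjusted p = 0.00344). The Sorl1 call was lost without control contralateral 1 or 3 (adjusted p = 0.0839 and 0.0722). In injured nerves, 1 of 13 was called, and it was lower, as were 4.44% of all genes. This was Sorcs1, a sortilin relative, at 83.8 to 102 CPM in control and 42.6 to 45.1 CPM in RaptorKO nerves (-1.02 ± 0.114, adjusted p = 0.000687). No gene of the list was called higher there, but 1 or 2 were under 5 of 13 alternatives. These were DESeq2, the exact test of edgeR, a fit of all 13 libraries, no count filter, and leaving out RaptorKO injured 2. Injury called 8 of 15 genes higher and 5 lower in each genotype, against 32.4% and 32.9% of all genes in control and 30.5% and 28.5% in RaptorKO nerves. The log2 fold change of Sorcs1 was -2.26 in control and -3.08 in RaptorKO nerves, and the interaction was called (-0.84 ± 0.159, adjusted p = 0.0122), as it was without both control 3 libraries (-0.86, adjusted p = 0.0498). Sorcs2 rose by 1.22 and 0.74 after injury, and Maged1, a p75-binding adaptor gene, fell (-1.05 and -1.07).

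Of 24 adaptors and effectors of Trk receptors, 1 was called higher and 2 lower among 23 tested in injured RaptorKO nerves, against 4.09% and 4.44% of all genes, with a median of -0.07 against 0.001 over all genes. Plcg1, the phospholipase C gamma gene, was higher (0.89 ± 0.125, adjusted p = 0.00184). Pik3r1, a regulatory subunit gene of PI3 kinase, was lower (-0.37 ± 0.101, adjusted p = 0.0456), as was the ubiquitin ligase gene Nedd4l (-0.38 ± 0.105, adjusted p = 0.049). Both calls depended on single libraries. Pik3r1 was no longer called without any of the control injured libraries or RaptorKO injured 1 or 2, and Nedd4l without any of the control injured libraries or RaptorKO injured 1 or 3. In contralateral nerves, Pik3r1 was the 1 gene called among 22 (-0.49 ± 0.0737, adjusted p = 0.00245), against 10.2% of all genes (4.49% higher, 5.68% lower). Injury called 7 of 23 higher and 12 lower in control nerves, against 32.4% and 32.9% of all genes, and 5 higher and 11 lower in RaptorKO nerves, against 30.5% and 28.5%. Gab2, a docking adaptor gene, rose by 1.97 and 2.27, while Pik3r1 (-2.10 and -1.95) and the receptor phosphatase gene Ptprf (-2.27 and -2.09) fell.

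Among 17 genes that cleave proneurotrophins or control such proteases, 3 of 10 tested were higher and 1 lower in RaptorKO contralateral nerves, against 4.49% and 5.68% of all genes, with a median of 0.25 against 0.01 over all genes. The proprotein convertase gene Pcsk6 was at 104 to 119 CPM in control and 41.1 to 51.1 CPM in RaptorKO nerves (-1.27 ± 0.0951, adjusted p = 6.16e-05). The protease inhibitor gene A2m (1.495 ± 0.177, adjusted p = 0.000501) and the metalloproteinase gene Mmp2 (0.98 ± 0.126, adjusted p = 0.000854) were higher. In injured nerves, the urokinase gene Plau was higher in RaptorKO, at 24.9 to 43.9 CPM against 16.6 to 18.1 CPM in control (1.03 ± 0.194, adjusted p = 0.00858). Of the 11 tested genes of the list, 0 were called lower, against 4.44% of all genes, so the 0 is near the background. With no count filter, 1 was called lower. After injury, the convertase gene Furin rose by 1.40 in control and 1.46 in RaptorKO nerves, Plau rose by 2.53 and 2.84, and the tissue plasminogen activator gene Plat rose by 0.59 and 1.13. Pcsk6 fell in both genotypes (-2.80 and -1.76). The interaction did not pass the test for Plat (0.52, adjusted p = 0.122) or Pcsk6 (1.02, adjusted p = 0.0894).

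Of 11 genes known to respond to neurotrophins, which also respond to other growth factors, 3 of 10 tested were called higher in injured RaptorKO nerves and none lower, against 4.09% and 4.44% of all genes, with a median of 0.19 against 0.001 over all genes. They were Spry4 (1.09 ± 0.188, adjusted p = 0.00545) and Spry2 (0.68 ± 0.127, adjusted p = 0.00845), which encode inhibitors of receptor tyrosine kinase signaling, and the immediate early gene Egr1 (0.78 ± 0.195, adjusted p = 0.0304). The Egr1 call was lost without control injured 1 or 3 or RaptorKO injured 1 or 3. In the same comparison, 1 gene of the list was called lower with DESeq2, the exact test of edgeR, or no count filter. It was also 1 without RaptorKO injured 2. In contralateral nerves, Spry2 was the 1 gene called of 8 (0.52 ± 0.144, adjusted p = 0.0464), against 10.2% of all genes (4.49% higher, 5.68% lower). Spry2 was no longer called in 6 of the 7 fits that left out a library, all but that without RaptorKO contralateral 1. After injury, 8 of 10 were called higher and 1 lower in control nerves, against 32.4% and 32.9% of all genes, and 9 higher and 1 lower in RaptorKO nerves, against 30.5% and 28.5%. Fos rose by 3.97 and 4.24. Fosl1 had 0 to 2 counts in control contralateral and 455 to 564 counts in control injured libraries. Egr2, a regulator of myelin genes, fell in both genotypes (-3.45 and -2.82).

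**Figure D4:**
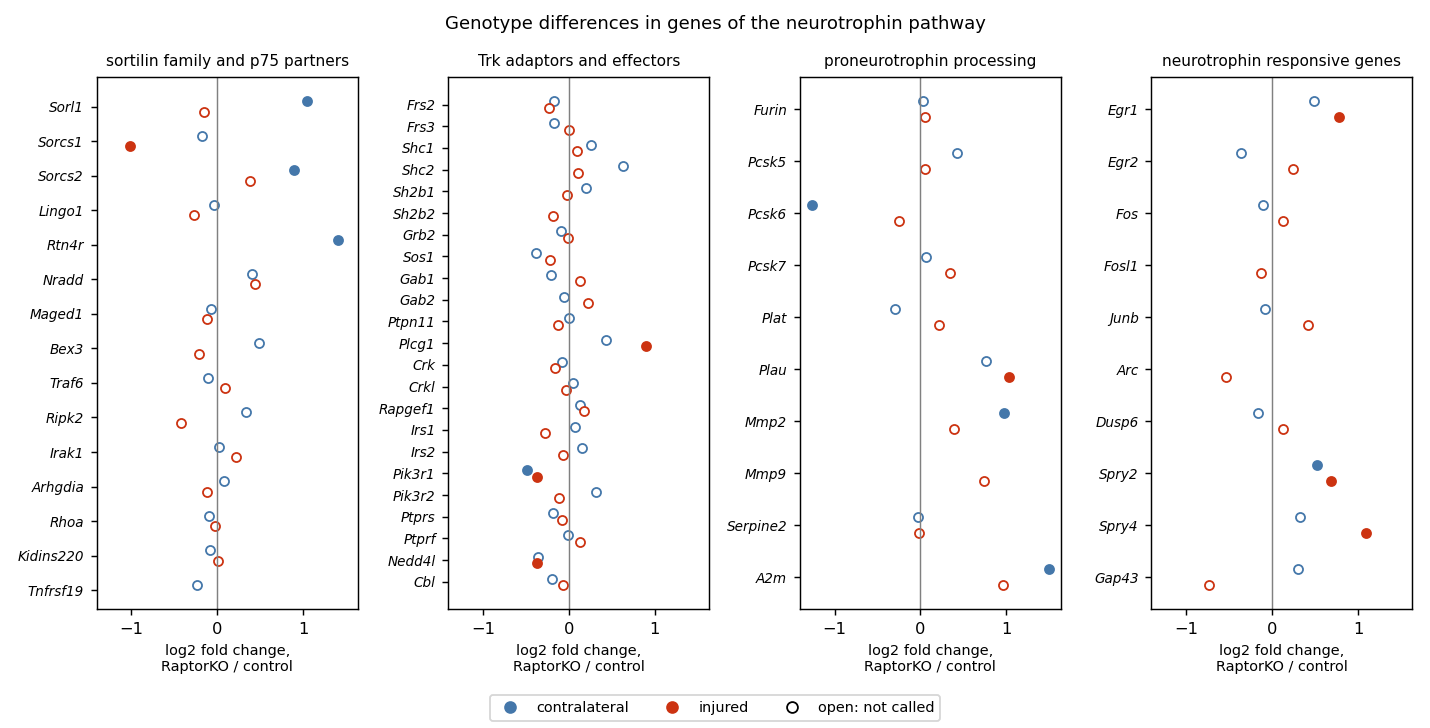
Log2 fold change of RaptorKO over control for tested genes of the 4 pathway lists in contralateral (blue) and injured (red) nerves; filled points were called. Sorcs1 and Pcsk6 lie at -1.02 in injured and -1.27 in contralateral nerves, and most genes are open points near 0.

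Across the 13 libraries, the log2 CPM of Ngfr was most like that of the cyclin gene Ccnd1 (Pearson r = 0.998), Cmtm3 (0.998), and Ckap4 (0.997) among 12851 genes. Ntrk3 was most like Prss12 (0.996), Ugt8a (0.995), an enzyme gene of myelin lipid synthesis, and Spire2 (0.995). Sort1 was most like Nacc2, Mt3, and Kif1a (0.997 each). Ntrk2 had no neighbour as close, with Luzp1 at 0.893, Pdpr at 0.864, and Ttc28 at 0.846. These values are descriptions over libraries that share the large injury difference.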

How the data were processed

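Reads were trimmed with Trimmomatic, aligned to GRCm38, and quantified with RSEM 1.2.22 by the authors, who deposited expected counts per gene and library. Of the nonzero values, 24.93% to 27.95% per library were not whole, as RSEM divides multimapping reads among genes. The counts were rounded here. The strand setting of the counting is not given in the sources used here. Of 40787 genes, 40634 matched GENCODE M21 by ID. Groups and replicate numbers were taken from the sample labels, and all value columns were used. By the study's text and the labels, equal numbers within a genotype mark the injured and contralateral nerve of a mouse, and both control 3 nerves share high Xist counts. Deviations of these pairs from the group means correlated at 0.067, 0.129, and 0.305 in control and -0.024, 0.211, and 0.168 in RaptorKO nerves. The main fits hold no replicate block.

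Genes with 50 counts or more in at least 2 libraries of a comparison were tested with edgeR 4.0.16 (R 4.3.3; TMM factors, glmQLFit and glmQLFTest) on the groups compared, or on all 13 libraries for the interaction. Calls required a Benjamini-Hochberg adjusted p below 0.05 over all tested genes and a fold change above 1.2. Standard errors were derived from the F statistic of each gene, and log2 CPM used a prior count of 2. Genes below the filter were tested with a two-sided exact permutation test over libraries and given pooled 95% Poisson intervals (scipy 1.17.1) with a floor of 3 counts. The intervals are two-sided, whereas a group with 0 counts was given the floor as its upper limit, which is tighter. Upstream sequences came from RefSeq tables of GRCm38.p6, which had an entry for 4 of the 7 genes. The scripts were tested on simulated data. Alternatives were RLE factors, DESeq2 1.42.0, the exact test of edgeR, other count filters, a replicate block, a fit of all libraries, and leaving out libraries.

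The genes and lists were chosen with earlier results of these data known. Named were the 7 genes, Rptor, up to 3 called genes per pathway list and comparison with the smallest p, and the 3 genes most correlated with each receptor gene. Sox10 was named besides. Some genes of the lists are not reported here.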

Additional observations from a re-analysis of the deposited data

Results flagged for a closer look

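The injury response of Ngfr differed between genotypes by the interaction test, at -0.931 on the log2 scale (adjusted p = 0.00857, edgeR quasi-likelihood test), with all 4 RaptorKO contralateral libraries above the 3 control ones and overlapping levels after injury. The injury response of Sorcs1 differed in the same way, at -0.84 (adjusted p = 0.0122), with all 3 RaptorKO injured libraries below the 3 control injured ones. Bdnf in RaptorKO contralateral nerves had 1 library far from the others, with 2 counts against 0 in the other 3, for a gap over range of 1.0 against a limit of 0.829. With the other 3 libraries tied at 0, any count gives this value, and 2 counts lie under the floor of 3, so nothing is read from it. Chance flags about 1 in 20 groups of untied values.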

How the results depend on the processing

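The number of receptors called did not change under any alternative in contralateral nerves, in either injury comparison, or in the interaction. In injured nerves between genotypes it was 0 and became 1 with all 13 libraries in 1 fit (Sort1) and 1 with no count filter (Ntrk2), and it ranged from 0 to 1 when a library was left out. The cause was not tested. The Ngfr difference in contralateral nerves ranged from 0.74 to 0.88 (adjusted p 7.48e-10 to 0.00706) and its interaction from -1.07 to -0.83 (2.74e-06 to 0.0324). The fall of Ntrk2 in control nerves ranged from -0.65 to -0.34 (0.00012 to 0.0447). Uncalled Ntrk2 differences near 0 changed sign. Between genotypes in contralateral nerves, the value was 0.024 with the replicate block, and -0.12 to 0.098 when a library was left out. Across injury in RaptorKO nerves, it was 0.022 with no count filter, 0.009 with the filterByExpr filter, and -0.20 to 0.179 when a library was left out. Of the values of named genes, 901 kept direction and side of the threshold, 41 lost and 3 gained a call, and 9 changed sign.

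With the replicate block, which pairs the nerves of a mouse across injury, no receptor gained or lost a call, and the Ngfr interaction was -0.926 (adjusted p = 0.0168). Between genotypes, equal numbers belong to different mice. With the replicate block there, the calls of Pik3r1, Nedd4l, and Egr1 in injured nerves and of Spry2 in contralateral nerves were lost. The last was also lost with no count filter and with the filterByExpr filter, as was that of Nedd4l, which was lost with RLE factors too. Pik3r1 in injured nerves was not called with no count filter.

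Counts over all genes moved more. Genes called higher in injured RaptorKO nerves numbered 493, 856 with no count filter, and 176 to 484 when a library was left out, and those lower 535 and 271 to 515. In contralateral nerves, 533 were higher, 880 with the replicate block, and 247 to 598 when a library was left out, and 675 were lower against 278 to 820. The interaction called 137 higher and 181 lower, 245 and 353 with DESeq2, 51 and 62 without both libraries of control 3, and 54 to 129 and 78 to 163 when a library was left out. The ligand groups held at most 11 counts, which sets the width of their intervals.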
